A study of Bos taurus and Bos indicus with 3 samples.

Results

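Peripheral white blood cells of Jersey cows were compared with those of Holstein cows, both taurine dairy breeds, gene by gene. Each breed was a single polyadenylated RNA library: the Holstein library held blood of 40 cows of the Dairy Cattle Center of the University of Wisconsin, and the Jersey library held blood of 7 cows of that university's research station at Arlington. Tail vein blood was mixed at equal volumes within a breed before the white cells were spun down and washed in a buffer that lyses red cells, so that no animal can be told from another, and age, parity and health of the cows are not given in the sources used here. A library of 45 Cholistani cows, an indicine breed sampled in Pakistan, is quoted only where its level helps to place a taurine value. The Cholistani RNA was transported in the storage matrix RNAStable. The models compared were those with an FPKM value in both taurine libraries and at least 10 FPKM in either of them. These numbered 13038 of the 25968 models of the table, while 11660 were listed at 0 in both libraries, 1265 stayed below 10 FPKM in both, and 5 had no value. FPKM, fragments mapped to a model scaled to its exon length and to the size of the library, is a level per length. Levels of different genes can thus be set side by side. The libraries were size selected at about 300 bp, so the levels of models shorter than that are uncertain. At the edge of the minimum, 16 models had a higher value between 10.004 and 10.0998 FPKM, with a median of 4.94 FPKM in their lower library, and 19 left out had a higher value between 9.91 and 9.998 FPKM, with a median of 0 in the lower one. Differences are given as the log2 ratio of Jersey to Holstein after 1 FPKM was added to each value, which understates the change of low genes, and positions are those of the cattle genome build btau4.0. With 1 library per breed there was no replicate check, and breed, herd, number of cows pooled and library cannot be told apart. All folds below describe these 2 libraries.

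White blood cells of cattle are a mixture. Neutrophils and monocytes engulf microbes, B cells carry immunoglobulin and turn into antibody-secreting plasma cells, and T and natural killer cells help or kill; cattle also have many gamma delta T cells, a large share of which carry the scavenger receptors of the WC1 family. Platelets and the red cell precursors that escape lysis add their own transcripts to such a preparation. RNA of a mixed sample therefore moves both with how much each cell makes of a transcript and with how many cells of each type are present.

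The FPKM sums were alike, 5949765 in Holstein and 6288105 in Jersey, as were the numbers of models above 0, 13409 and 13783. The Cholistani sum was larger, 9525773, and Cholistani levels are quoted without rescaling. Of the 100 most abundant models, the share of the FPKM sum was 38.9% in Holstein and 39.2% in Jersey, against 46.6% in Cholistani. The number of fragments behind each value is not in the table, so no counting interval was given, and an FPKM sum is no measure of depth. The most abundant models were shared by both breeds: a merged mitochondrial model of ATP6, ATP8 and COX3 (157891 FPKM in Holstein and 168191 in Jersey), a model that merges MHC class I heavy chains (84948 and 77462 FPKM), their partner B2M (82480.2 and 81393 FPKM), MT-CO1 (79333 and 88848 FPKM) and MT-ND3 (71009 and 71815 FPKM).

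Of the 13038 models, 882 (6.76%) were at least 2-fold higher in Jersey, 512 (3.93%) were at least 2-fold lower, and 11644 were neither. At 1.5-fold, 1404 (10.8%) were higher and 7.68% lower. The median log2 ratio was 0.02, and 52.6% of the models had a ratio above 0. These shares are the background for counts over models of every kind. The gene lists below hold only models with the name of 1 gene, whose own shares follow. The counts differed by the kind of model. Among the 6474 models that carry the name of 1 gene, 115 (1.78%) were at least 2-fold higher and 92 (1.42%) lower. At 1.5-fold, 5.05% of them were higher and 4.82% lower, and 90.1% lay within 1.5-fold of each other. Models known only by a protein accession were alike, with 63 higher and 38 lower of 3080, as were the 155 merged models, with 3 higher and 1 lower. By contrast, the 2675 models without any name gave 569 higher and 360 lower, and the 137 named for a small noncoding RNA gave 105 higher and 4 lower. Of the unnamed models, 724 were listed at 0 in 1 library and entered only through the other. Among the 1951 unnamed models above 0 in both, 126 were higher and 79 lower, and among 88 small noncoding RNA models 59 and 1. The remaining 517 models, with a provisional identifier, gave 27 and 17.

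Models of low level carried most of the large differences. In the class with the lowest mean level, of 4 classes of equal size, 21.7% of the models were past 2-fold on the higher side and 13.8% on the lower, against 1.69% and 0.491% in the highest class. A value of 0 in 1 library both lowers the mean and widens the ratio, and the lowest class held 881 of the 885 such models. Among its 2379 models above 0 in both libraries, 151 were higher and 126 lower, against 55 and 16 of 3260 in the highest class. Named genes narrowed in the same way: the SD of their log2 ratios was 1.248 in the lowest class, which held 67 models listed at 0 in 1 library, and 0.26 in the highest. Models spanning up to 300 bp on the genome gave 40.1% higher and 18.4% lower, and those over 10 kb 2.98% and 1.81%. In all, 885 models were listed at 0 in 1 of the libraries, 559 in Holstein and 326 in Jersey; among the 12153 above 0 in both, 323 were at least 2-fold higher and 186 lower. For a model listed at 0 no fold is given.

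**Figure D1:**
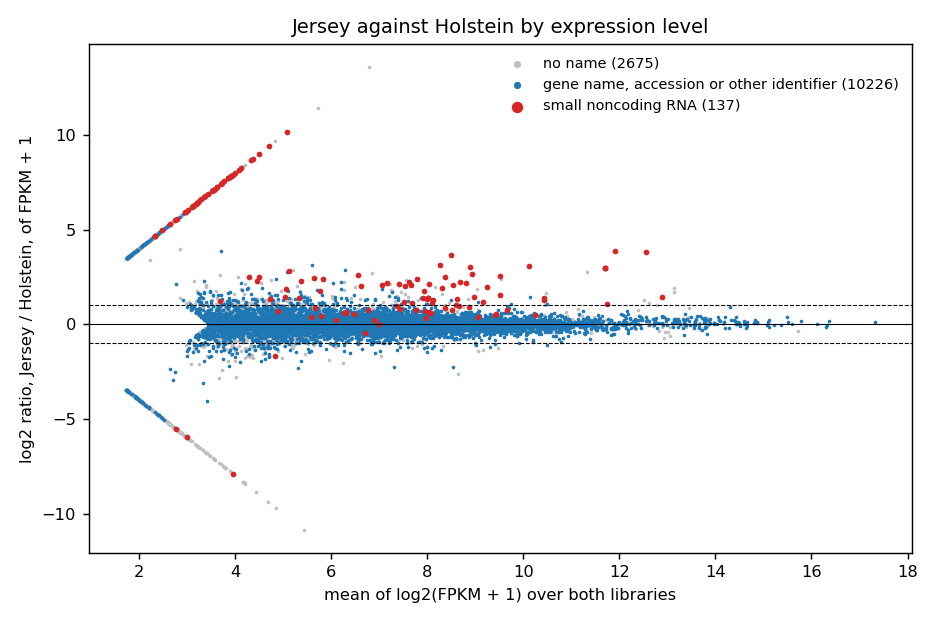
Log2 ratio of Jersey to Holstein (vertical axis, FPKM + 1) against the mean log2 level of both libraries (horizontal axis), 1 point per model, for 2675 models without a name, 137 small noncoding RNA models and 10226 others; dashed lines mark 2-fold. The cloud narrows to the right, the small noncoding RNA models lie mostly above 0, and the straight arms at the left are models listed at 0 in 1 library.

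Genes of B cells were higher in the Jersey library without exception. All 17 B cell markers found and compared, of 27 on the list, had a ratio above 0, also after both libraries were rescaled to the same FPKM sum, which left 41.9% of all models above 0. Their median log2 ratio was 0.46, none passed 2-fold, and 5 were at least 1.5-fold higher. VPREB3, a chaperone-like protein of the B cell lineage (chromosome 17, 74501786 to 74504707), had 180.3 FPKM in Holstein and 323 in Jersey, a log2 ratio of 0.84. FCER2, the low-affinity IgE receptor CD23, had 359 and 568 FPKM. TNFRSF13C, the receptor through which the survival factor BAFF acts, had 795 and 1252 FPKM. TNFRSF13B, another BAFF family receptor at 49.8 and 76.7 FPKM, was past 1.5-fold as well. The most abundant markers differed less: the antigen receptor chain CD79A had 5281 FPKM in Holstein and 6189.5 in Jersey, and the transcription factor SPIB 1414 and 1935 FPKM. The smallest ratio was that of EBF1, a transcription factor that specifies the lineage, with 90.02 and 99.7 FPKM. Summed over the list, the level was 14292 FPKM in Holstein and 18757 in Jersey. In a bulk sample such as this, fewer cells of a type and less RNA per cell cannot be told apart. Plasma cell genes did not share the direction: the 5 compared had a median of 0.01, which turned to -0.07 after rescaling, and the secretory differentiation factor PRDM1 had 74.5 FPKM in Holstein and 42.5 in Jersey.

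Monocyte genes lay on the other side. All 18 markers compared had a ratio below 0, with a median log2 ratio of -0.40, and their summed level was 16533 FPKM in Holstein and 13024 in Jersey. ADGRE1, an adhesion receptor of the macrophage lineage known in mice as F4/80 (chromosome 7, 16001102 to 16047663), had 209 FPKM in Holstein and 77.9 in Jersey and was the only marker of the list past 2-fold. VCAN, a matrix proteoglycan that monocytes make, had 202 and 119 FPKM. NR4A1, a nuclear receptor needed by patrolling monocytes, had 109 and 65.8 FPKM. CX3CR1, the fractalkine receptor, had 775 and 516 FPKM, which made it the last of the 4 markers at least 1.5-fold lower. The lipopolysaccharide co-receptor CD14 had 342 and 237 FPKM. At the near end, the protease CTSS had 4169 FPKM in Holstein and 3552 in Jersey, its inhibitor CST3 2639 and 2325 FPKM, and the mannose receptor MRC1 17.7 and 17.0 FPKM. MARCO and CD300E were listed at 0 in both libraries. The B cell markers and the monocyte markers, both of white cells, thus did not overlap in sign: within the Holstein library the summed B cell level was 0.864 times the summed monocyte level, and within the Jersey library it was 1.44 times (1.21 in Cholistani). Being ratios inside a library, these do not depend on the scaling between libraries.

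Neutrophil genes were lower in Jersey in 18 of 22 cases, with a median of -0.32 and summed levels of 48096 FPKM in Holstein and 39781 in Jersey. Of the list, 4 genes were at least 2-fold lower and none higher, and among the 20 above 0 in both libraries 2 were lower. CXCR2, the main receptor for neutrophil-attracting chemokines, had 33.5 FPKM in Holstein and 7.62 in Jersey (598 in Cholistani). BPI, a granule protein that binds bacterial lipopolysaccharide, had 157 and 62.4 FPKM. STEAP4, a metalloreductase, and MMP9, a gelatinase of the granules, had 16.2 and 10.14 FPKM in Holstein and were listed at 0 in Jersey. CXCR2, STEAP4 and MMP9 reached the minimum only through the Holstein library. The most abundant neutrophil genes were those of the calcium-binding alarmins, with 17413 and 12184 FPKM for S100A12, a log2 ratio of -0.52, and 11065 and 9500.3 FPKM for S100A8. CYBA, a subunit of the oxidase that makes superoxide, went the other way, at 5049 FPKM in Holstein and 5855 in Jersey (it was named after its values were seen). The summed B cell level was 0.297 times the summed neutrophil level in Holstein and 0.472 times in Jersey.

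T cell genes stood nearer to the middle. Of 14 markers, 10 had a ratio below 0, with a median of -0.10, and none passed 1.5-fold. CD28, which carries the co-stimulatory signal, had 91.0 FPKM in Holstein and 65.8 in Jersey, and the transcription factor LEF1 735 and 564 FPKM, while the T helper factor GATA3 had 94.9 and 128 FPKM and the receptor-proximal kinase ZAP70 569 and 702 FPKM. The receptor chains CD3E (2041 and 2127 FPKM) and CD3G (1016 and 1072 FPKM) were nearly level. All 4 gamma delta T cell markers found, of 17 on the list, were higher in Jersey, with a median of 0.78. Because 1 of them shares a listed span with another model, the median of the other 3, 0.56, is given too. WC11, a WC1 receptor (chromosome 5, 10001849 to 10064425), had 33.4 FPKM in Holstein against 159 in Jersey, with 62.3 in Cholistani, and the related WC1 had 39.2 and 51.8 FPKM. SOX13, a transcription factor of gamma delta T cells, had 66.2 and 133 FPKM, a log2 ratio of 0.996 that fell just short of 2-fold, and the regulator ID3, which B cells use too, had 367 and 542 FPKM. Fragments of the near-identical WC1 genes can be split among their models, so the levels of WC11 and WC1 are uncertain.

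Natural killer and cytotoxic genes were lower in Jersey in 10 of 14 cases, with a median of -0.27 and summed levels of 11422 FPKM in Holstein and 8706 in Jersey. None passed 2-fold and 3 were at least 1.5-fold lower. The granule protease GZMM had 94.5 FPKM in Holstein and 46.9 in Jersey. FCGR3A, the IgG receptor CD16, had 1608 and 850.3 FPKM, and the chemokine CCL5 had 1562 and 876 FPKM (10663 in Cholistani). Both are also made by other white cells, monocytes for the former and T cells and platelets for the latter. Of the others, the activating receptor NCR1 had 699.7 and 502 FPKM and the signalling adaptor TYROBP 5161 and 4213 FPKM, and the adaptor HCST had 605 and 757 FPKM (HCST was named after its values were seen).

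**Figure D2:**
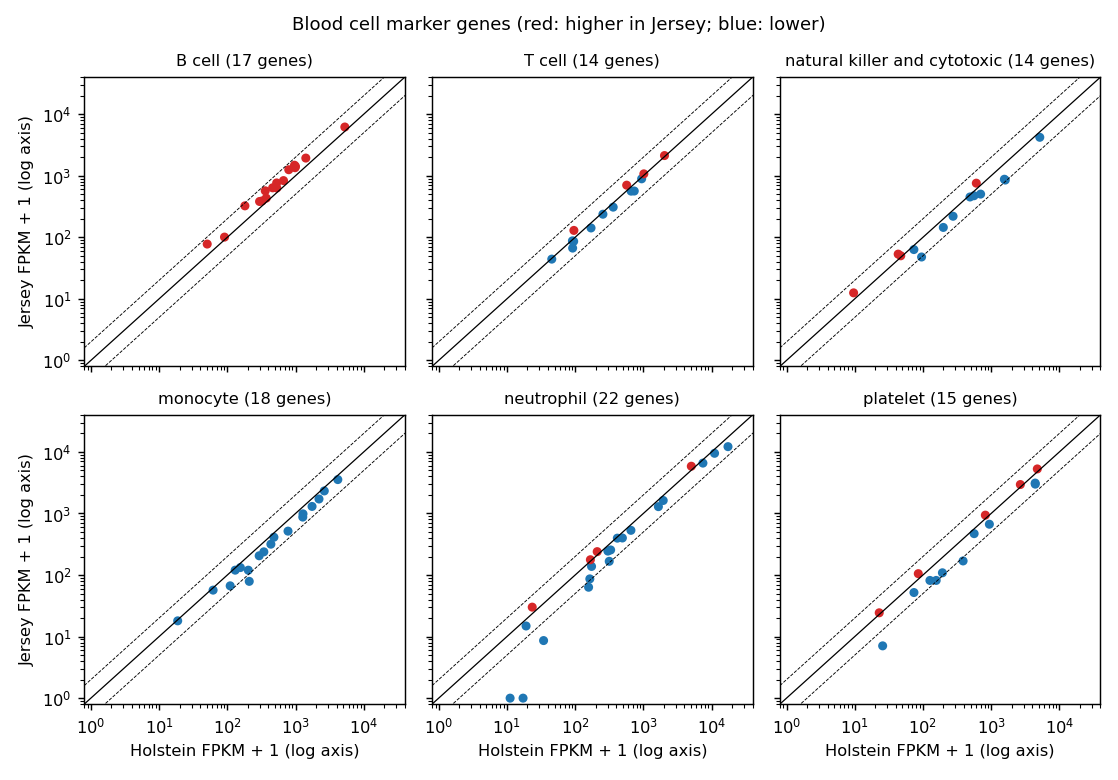
Jersey level against Holstein level (FPKM + 1, both axes logarithmic) of the marker genes of 6 blood cell types, 1 point per gene, red where higher in Jersey and blue where lower; the solid line marks equal levels and the dashed lines 2-fold. All 17 B cell genes lie above the line, all 18 monocyte genes lie below it, and 10 of 14 T cell genes lie just below it.

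Platelet genes split into a lower and a slightly higher set. Of 15 compared, 10 were lower in Jersey, with a median of -0.50 and summed levels of 19659 and 17059 FPKM. The integrin ITGB5 had 24.7 FPKM in Holstein and 6.07 in Jersey and the calmodulin-binding protein NRGN 387 and 168 FPKM, both past 2-fold. ITGB5 reached the minimum only through the Holstein library. TREML1, a receptor of platelet granules, had 155 and 80.8 FPKM, and the matrix protein THBS1 had 192 and 108 FPKM. Of the most abundant members, GNG11, a G protein subunit, was slightly higher in Jersey, at 4748 and 5293 FPKM, and F13A1, a clotting factor subunit that monocytes also make, was lower, at 4417 and 3118 FPKM. Relative to the pan-leukocyte sum, the platelet sum was 0.391 in Holstein, 0.360 in Jersey and 0.0729 in Cholistani. Red cell genes had a median of -0.13 over 18 genes, with 7 above 0; the transcription factor TAL1 had 438 and 273 FPKM, and the merged model of the beta globins (chromosome 15, 47809667 to 47887216) 12696 and 8495 FPKM. HBA, an alpha globin, was listed at 0 in Holstein against 11.5 FPKM in Jersey, and HBM, AHSP and RHAG were listed at 0 in both, so the globin chains were read very unevenly.

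Pan-leukocyte genes, the check of the labelled cell type, were abundant: all 9 had at least 433 FPKM in each library, with a median log2 ratio of -0.14. The actin-binding peptide gene TMSB4X had 14873 FPKM in Holstein and 13497 in Jersey, and the integrin ITGAL, farthest from 0, had 679 and 433 FPKM. Of 10 genes of other tissues found, 8 were listed at 0 in both libraries, among them APOB of the liver, LALBA of the udder, INS and GFAP. The other 2 were PECAM1, which endothelium shares with white cells and platelets, at 218 and 165 FPKM, and EPCAM of epithelia, at 6.64 and 10.8 FPKM. Rarer white cells were read at low levels. All 4 eosinophil genes compared were higher in Jersey, but PRG3 and IL5RA reached the minimum only through the Jersey library. The granule protein PRG3 was listed at 0 in Holstein against 33.1 FPKM in Jersey, and the interleukin-5 receptor IL5RA had 7.60 and 13.1 FPKM. Of 6 dendritic cell genes, 3 were higher and 3 lower, from the chemokine receptor XCR1 (0 and 11.7 FPKM) to the lectin CLEC10A (10.5 and 0 FPKM). The pair of basophil and mast cell genes compared, SLC18A2 and KIT, had 14.2 and 11.6 FPKM and 24.1 and 23.8 FPKM, and 6 others of that list, MS4A2, GATA2 and CPA3 among them, did not reach the minimum.

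**Figure D3:**
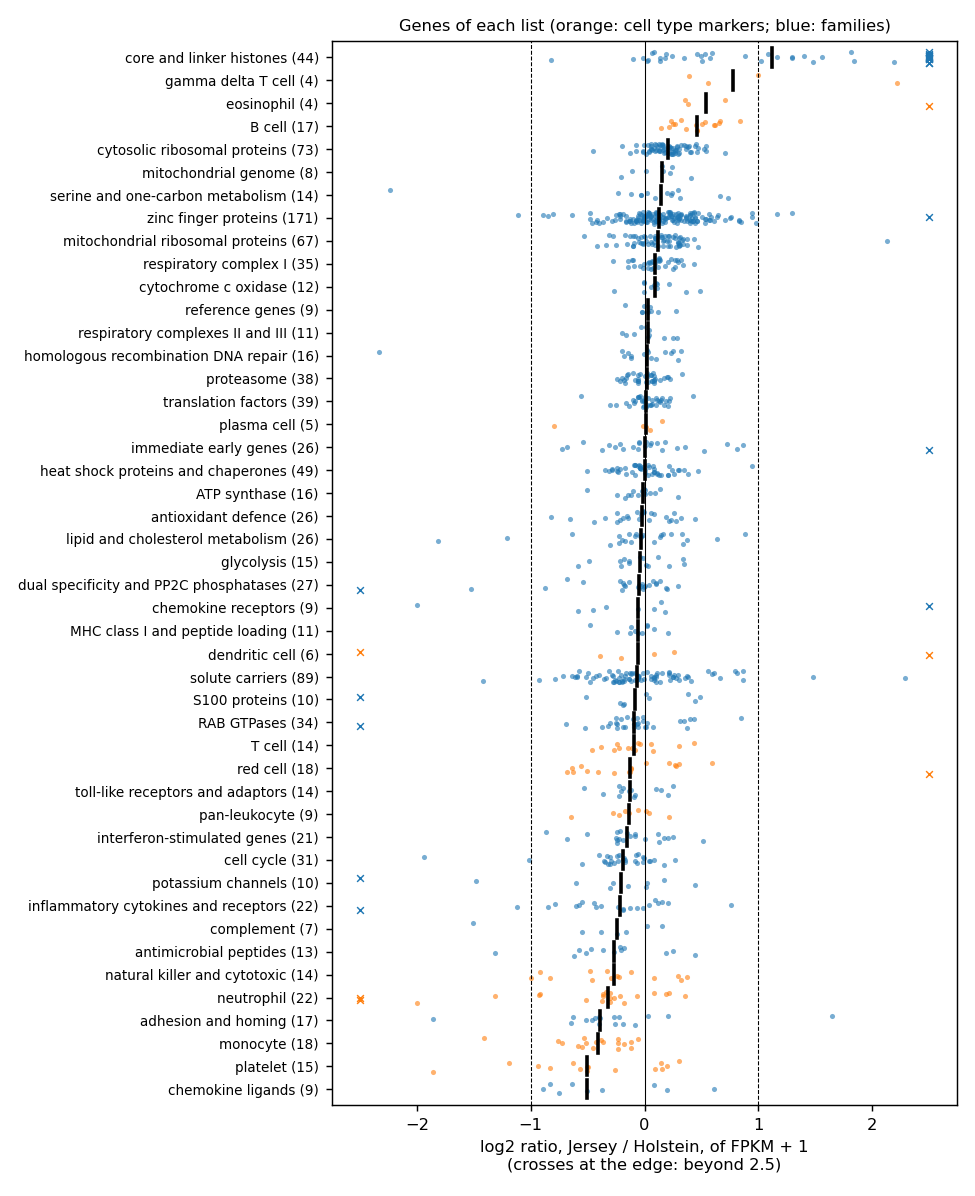
Log2 ratio of Jersey to Holstein (horizontal axis, FPKM + 1) for the genes of each list with at least 3 genes compared, 1 point per gene, with the number of genes in parentheses and a black bar at the median; dashed lines mark 2-fold and crosses at the edge lie beyond 2.5. Histone, gamma delta T cell, eosinophil and B cell genes stand at the top, and chemokine, platelet, monocyte, adhesion and neutrophil genes at the bottom.

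Core and linker histones, the proteins around which DNA is wound, were the gene family farthest from 0. Of 59 histone models 44 were compared, and 41 of these were higher in Jersey (38 after rescaling), 24 at least 2-fold and none at least 2-fold lower, with a median log2 ratio of 1.12. Since 13 of the 44 were listed at 0 in Holstein and entered only through the Jersey library, the median of the 31 above 0 in both, 0.51, is given beside it; 11 of those 31 were past 2-fold. Among the 12 whose name stands on 1 model only, the median was 0.27. The table names these models by protein entries that several gene copies share, so they are told apart by position. The highest with a level in both was an H2A1 gene (chromosome 23, 31718095 to 31718555) with 29.8 FPKM in Holstein and 139.6 in Jersey. An H2B1K gene (31367018 to 31367692) had 38.1 and 139.3 FPKM, an H4 gene (31021291 to 31021602) 26.9 and 97.2 FPKM, an H2B1 gene (31064115 to 31064495) 50.5 and 151 FPKM, and another H4 gene (31713298 to 31713609) 87.5 and 246 FPKM. Near-identical copies share fragments, so how these levels divide among the copies is uncertain. The 3 genes with a lower Jersey level were an H2B1 gene (31027423 to 31027803; 141 and 79.3 FPKM), H11, a linker histone (202 and 187 FPKM), and an H4 gene (37.5 and 37.0 FPKM).

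Within the family the difference was uneven. Histone variants that are made throughout the cell cycle from polyadenylated messages, set apart after their values were seen, were nearly level and far more abundant. An H3.3 gene on chromosome 16 had 4642 FPKM in Holstein and 4706 in Jersey, H3.3 on chromosome 19 had 2664 and 2790.2 FPKM, H2AV 2165 and 2298 FPKM, H2AZ 559.9 and 633 FPKM and H1FX 2768 and 3157 FPKM. All 7 such models had log2 ratios between 0.02 and 0.35, and their sum was 14353 FPKM in Holstein and 15299.6 in Jersey. The other 37 histone models, mostly of the type made during DNA replication, had summed levels of 1607 and 3026 FPKM, a ratio of 1.88, and included all 24 past 2-fold; 13 of the 37 were listed at 0 in Holstein, and of the 24 above 0 in both libraries 11 were past 2-fold, with a median of 0.74. By protein, 6 of 12 H2A, 5 of 8 H2B, 5 of 7 H3 and 8 of 14 H4 models were at least 2-fold higher, and none of the 3 H1 models. Among those above 0 in both libraries the counts were 2 of 8 H2A, 3 of 6 H2B, 1 of 3 H3 and 5 of 11 H4 models. Messages of replication-dependent histones normally end in a stem-loop in place of a poly(A) tail, whereas these libraries were made from RNA selected by its poly(A) tail. Other genes of dividing cells did not share the direction. Of 31 cell cycle genes, 26 were lower in Jersey, with a median of -0.19, and none was at least 1.5-fold higher. The kinetochore genes CENPE (19.1 and 4.24 FPKM) and ZWINT (38.2 and 18.4 FPKM) were at least 2-fold lower, but CENPE reached the minimum only through the Holstein library. The abundant cell cycle genes MCM7, a replicative helicase subunit (524 and 523 FPKM), and PCNA, the sliding clamp of replication (364 and 360.2 FPKM), were level, and so was the nucleoside kinase TK1 (345 and 358 FPKM). Whether poly(A) selection differed between the libraries was not tested.

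**Figure D4:**
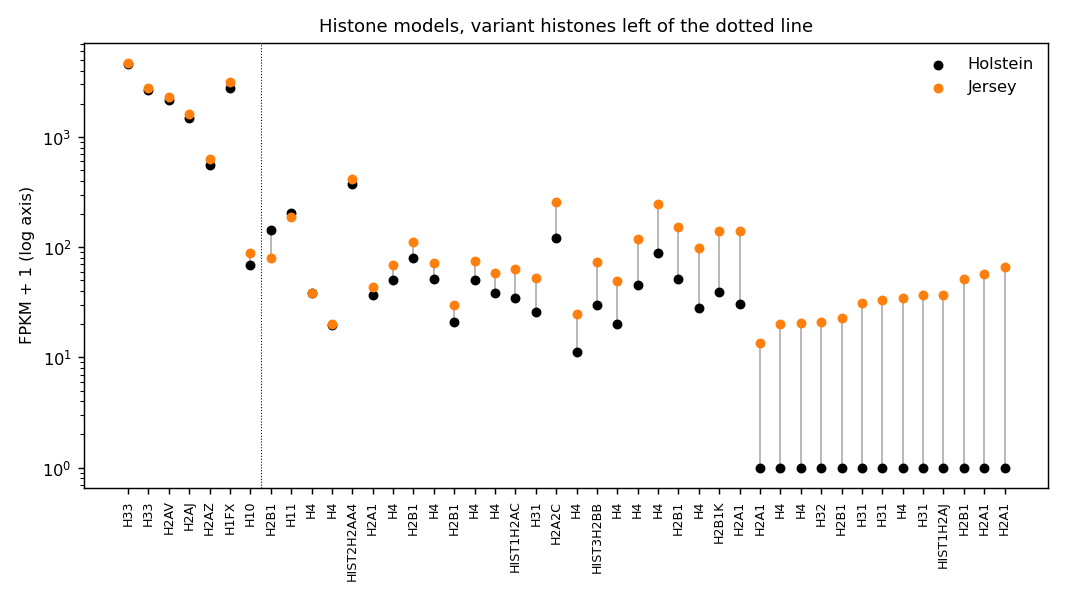
FPKM + 1 (logarithmic axis) of the 44 histone models in Holstein (black) and Jersey (orange), joined by a line per model and labelled with the protein entry name. The 7 variant histones left of the dotted line lie close together at high levels, and the 13 models at the right were listed at 0 in Holstein.

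Most of these genes form the large histone cluster of chromosome 23. Of 29 histone models on that chromosome 20 were at least 2-fold higher in Jersey, and 8 of the 17 above 0 in both libraries, with summed levels of 940.1 and 2056 FPKM. The other 175 named genes of chromosome 23 showed none higher and 2 lower at 2-fold, with a median of 0.03. With histones left out of all named genes, the counts were balanced, 91 higher and 92 lower of 6430. On the remaining chromosomes the share of named genes at least 2-fold higher ranged from 0 to 3.24%.

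Small noncoding RNAs were the other class that stood high in the Jersey library. These RNAs guide the modification of ribosomal RNA, build the spliceosome or hold back transcription elongation, and they too are normally not polyadenylated. Of 2906 models named for such an RNA only 137 reached 10 FPKM in either library; 132 of the 137 had a ratio above 0, 105 (76.6%) were past 2-fold on the higher side and 4 on the lower. As many as 46 were listed at 0 in Holstein, and 36 of the 46 were at 0 in Cholistani as well. Among the 88 above 0 in both taurine libraries, 59 were at least 2-fold higher and 1 was lower, with a median log2 ratio of 1.39. All 12 models of the U3 and U8 RNAs, which direct the cutting of the ribosomal RNA precursor, were past 2-fold. A U3 model within a shared span on chromosome 19 (8734352 to 8883076) had 1600 FPKM in Holstein against 22851 in Jersey (791 in Cholistani), and U3 models on chromosome 11 (76942772 to 76942901) and chromosome 27 (18723915 to 18724129) had 1013 and 14771 FPKM and 1184 and 9449 FPKM. The U8 model had 852 and 2224 FPKM. All 6 models of 7SK, which restrains the elongation factor P-TEFb, and all 4 of 5S or 5.8S ribosomal RNA were past 2-fold, as were 32 of 39 models of spliceosomal RNAs, with 2 of the 39 at least 2-fold lower. Among those above 0 in both libraries, all 10 U3 and U8 models, all 5 7SK models, the 1 model of 5S ribosomal RNA and 20 of 26 spliceosomal models were past 2-fold on the higher side. Of the U5 models, which carry a core part of the spliceosome, 4 were listed at 0 in Holstein and had between 237 and 1157 FPKM in Jersey.

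Guide RNAs of the nucleolus and the Cajal body had the same direction. Classes were formed by name alone. Models named SNORD or sno, such as snoU85, were counted as box C/D and other nucleolar RNAs, and only those named SCARNA as Cajal body RNAs. A class can therefore mix RNAs of different kinds. Of the box H/ACA RNAs, which guide pseudouridylation, 23 of 36 were at least 2-fold higher and 1 lower. Of the box C/D RNAs, which mostly guide methylation, and other nucleolar RNAs the counts were 16 of 21 and 1, and of the small Cajal body RNAs 6 of 11 and none. Many of these were listed at 0 in Holstein, 17 of the 36 box H/ACA models among them, and among those above 0 in both libraries 6 of 18 box H/ACA, 9 of 13 box C/D and other nucleolar and 3 of 8 Cajal body models were past 2-fold, all higher. snoU13 on chromosome 8 had 4606 FPKM in Holstein and 12359 in Jersey and SCARNA18 on chromosome 24 had 2338 and 4975 FPKM. SNORA12, which lies within a longer listed span, had 1024 and 1420.3 FPKM. Against the trend, a U6 model on chromosome 5 (237 FPKM), SNORA70 (62.0 FPKM) and snoU2_19 (46.0 FPKM) had a level in Holstein and were listed at 0 in Jersey, and a U2 model on chromosome 19 had 49.96 and 14.8 FPKM. Many copies of these genes are near-identical, and 63 of the 137 models carry a listed span of over 300 bp, longer than the RNA itself, so the level of a single copy is uncertain.

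**Figure D5:**
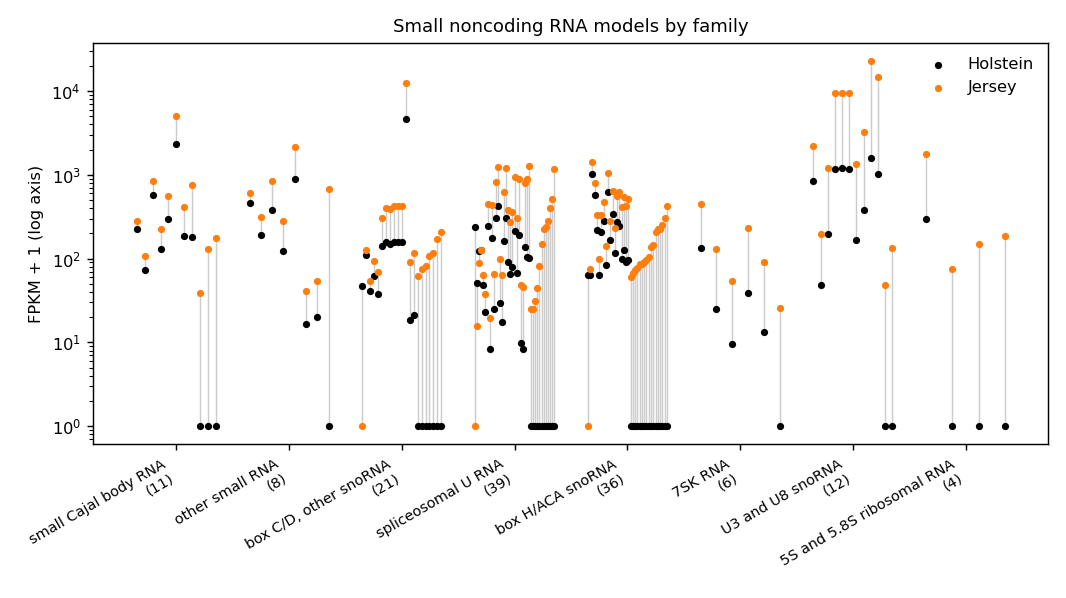
FPKM + 1 (logarithmic axis) of 137 small noncoding RNA models in Holstein (black) and Jersey (orange), joined by a line per model and grouped by RNA family with the number of models in parentheses. Nearly all orange points lie above their black partner, with all 12 U3 and U8 models and all 6 7SK models past 2-fold.

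Genes of protein synthesis were slightly and rather evenly higher in Jersey. Of 73 genes of cytosolic ribosomal proteins, each taken by its most abundant model, 65 were above 0 (56 after rescaling), with a median log2 ratio of 0.21 and summed levels of 859712 and 955043 FPKM, and none passed 2-fold. Proteins of the large subunit had a median of 0.24 over 42 genes and those of the small subunit 0.15 over 31. RPS27 had 3603 FPKM in Holstein and 5881 in Jersey and was the only member past 1.5-fold, followed by RPL9 with 1880.1 and 2740.4 FPKM and RPS19 with 3455 and 5031 FPKM. RPS26 was the lowest, at 2520.5 and 1842 FPKM. RPS29, among the most abundant, had 53527 and 59481 FPKM. Minor copies of RPL12, RPL17 and RPL39, given among the abundant genes further on, went past 1.5-fold in either direction. Mitochondrial ribosomal proteins showed 46 of 67 above 0 with a median of 0.11; their outermost values, MRPS2 at 167 and 232 FPKM and MRPL49 at 138 and 95.1 FPKM, stayed within 1.5-fold, other than MRPS63 at 2.25 and 13.2 FPKM. The 39 translation factors were level, with a median of 0.01 that turned to -0.07 after rescaling.

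Energy genes were close to level. Of 35 genes of respiratory complex I, 26 were above 0 (18 after rescaling), with a median of 0.09 and none past 1.5-fold, from NDUFB8 at 1085 and 895 FPKM to the assembly factor listed as NDUF3 at 247 and 333 FPKM. Cytochrome c oxidase genes had a median of 0.09 over 12 genes, led by COX6C with 1111 and 1560.0 FPKM, ATP synthase genes one of -0.01 over 16, and the 8 protein genes of the mitochondrial genome compared one of 0.16, from MT-CYB (27502 and 23816 FPKM) to MT-ND6 (10849 and 14425 FPKM). Of these 8, 3 share a listed span with another model, and the median of the other 5 was 0.02. Proteasome genes, 38 in number, had a median of 0.02 and log2 ratios from -0.24 to 0.33, and 49 heat shock proteins and chaperones a median of 0.00. The 9 reference genes, among them GAPDH at 1034 and 1119.8 FPKM and YWHAZ at 323 and 286 FPKM, had a median of 0.03 and ranged from -0.17 to 0.28, the narrowest range of the lists with at least 3 genes compared. The medians of the proteasome, chaperone and reference gene lists turned negative after rescaling, to between -0.08 and -0.05.

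Zinc finger genes, the largest family of transcription factors, tended to be higher in Jersey: 122 of 171 were above 0 (102 after rescaling), with a median of 0.13, 16 at least 1.5-fold higher and 5 lower, and 3 and 1 past 2-fold. The higher shares were 9.36% at 1.5-fold and 1.75% at 2-fold, against 5.05% and 1.78% of named genes and 10.8% and 6.76% of all models. The lower shares were 2.92% and 0.585%, against 4.82% and 1.42% of named genes and 7.68% and 3.93% of all models. ZNF775 was listed at 0 in Holstein against 18.01 FPKM in Jersey, ZNF548 had 3.77 and 10.8 FPKM, and ZNF618 had 13.2 and 5.60 FPKM. ZNF775 and ZNF548 reached the minimum only through the Jersey library, and ZNF618 only through the Holstein library.

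Genes by which white cells sense, signal and stick were mostly lower in Jersey. Of 9 chemokine ligands, 6 were below 0, with a median of -0.51, and 4 were at least 1.5-fold lower: CCL3 (200.5 and 108 FPKM) and CCL4 (85.3 and 54.5 FPKM), inflammatory attractants of monocytes and T cells, CCL5, described above, and CXCL16 (351 and 208 FPKM), a ligand of homing T cells. Because 3 of the 9 share a listed span with another model, the median of the other 6, -0.14, is given too. IL8, the neutrophil attractant, was higher, at 341 and 522 FPKM. Cytokines and their receptors showed 16 of 22 below 0 with a median of -0.21: the anti-inflammatory cytokine IL10 had 24.1 FPKM in Holstein and a listed 0 in Jersey, IL12B, which primes T helper 1 cells, had 17.3 and 7.40 FPKM, the shared receptor chain CSF2RB 185 and 102 FPKM and IL1B 89.3 and 51.4 FPKM. The abundant members IL2RG, the common gamma chain (2305 and 2207 FPKM), and TGFB1 (1760.2 and 1609.5 FPKM) differed little. Adhesion and homing genes were below 0 in 14 of 17 cases, with a median of -0.39. The integrin chain ITGA10 had 7.12 and 24.5 FPKM, against the trend, while the platelet and endothelial selectin SELP had 126 and 80.7 FPKM and ITGB1, a partner of many integrin chains, 1598 and 1218 FPKM (named after its values were seen).

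Antimicrobial peptide genes were below 0 in 10 of 13 cases, with a median of -0.27; besides BPI, the beta-defensins DEFB10 (180.1 and 117 FPKM) and DEFB7 (1094 and 731 FPKM) were lower. Of 7 complement genes 5 were below 0, led by CFB, factor B of the alternative pathway (141 and 49.0 FPKM; 218 in Cholistani), and by the C1q chains C1QB (1277 and 873 FPKM) and C1QA (1286 and 985 FPKM), with C3 itself at 286 and 241 FPKM. Toll-like receptors and their adaptors had a median of -0.13 over 14 genes, none of them past 1.5-fold. Interferon-stimulated genes gave 14 of 21 below 0 and a median of -0.15: the exonuclease ISG20 had 156 and 85.1 FPKM and the tether BST2 165 and 103 FPKM, whereas the abundant PLAC8 had 8406 and 9673 FPKM and IFI6 587 and 840.1 FPKM. Of the chemokine receptors, 5 of 9 were below 0 with a median of -0.06, and CXCR2, CX3CR1 and CCR2 of the myeloid cells were the lowest with a level in both.

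Immediate early genes, which are switched on within minutes of a stimulus, had 14 of 26 above 0 and a median of 0.01, which turned to -0.07 after rescaling. Their spread was wide: FOS had 103 and 189 FPKM, EGR1 23.3 and 41.6 FPKM and JUNB 1024 and 1469 FPKM, higher in Jersey, and DUSP6, a phosphatase that shuts off ERK, 333 and 208 FPKM. In Cholistani FOS and EGR1 had 1820.3 and 885 FPKM, far above both taurine libraries. MHC class I and peptide loading genes were near level, with a median of -0.06 over 11 genes and log2 ratios from -0.48 to 0.21. Only 2 genes of the class II list could be compared, the transactivator CIITA (528 and 763 FPKM) and the protease CTSS of the monocyte list; a merged model of class II chains on chromosome 23 (26180419 to 26430789) that includes the beta chain entry HB21, named after its values were seen, had 40227 and 52906 FPKM.

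Among metabolic genes the serine-degrading enzyme SDS (chromosome 17, 64236615 to 64244768) stood apart, with 809.7 FPKM in Holstein against 171 in Jersey (14764 in Cholistani), while the highest of the other 13 genes of serine and one-carbon metabolism, AMT of the glycine cleavage system, had 114 and 189.8 FPKM; PHGDH, the first enzyme of serine synthesis, had 2794 and 3425 FPKM. Lipid genes gave 2 at least 2-fold lower of 26, with a median of -0.04: DGAT2, which completes triglycerides, had 45.1 and 12.1 FPKM, and CPT1A, which admits fatty acids to mitochondria (chromosome 29, 47980141 to 47999705), 386 and 166 FPKM. The cholesterol exporter ABCG1 had 36.1 and 67.4 FPKM, and its regulator NR1H3, the liver X receptor alpha, 349.6 and 224 FPKM. Of 26 antioxidant genes, SRXN1, which repairs peroxiredoxins, had 744 and 419 FPKM and HMOX1, which degrades haem, 535 and 339 FPKM, both lower in Jersey, whereas FTH1, the ferritin heavy chain, had 9937 and 12020 FPKM; the median was -0.02. Glycolysis genes had a median of -0.04 over 15 genes, with PFKFB4 (183 and 121 FPKM) the lowest. Of 57 potassium channel genes found, 47 did not reach the minimum. Of the 10 compared, 2 were at least 2-fold lower, KCNE3 and KCNQ5, against 1.42% of all named genes. KCNE3, listed at 0 in Jersey, entered only through the Holstein library, and among the 9 above 0 in both libraries 1 was lower. Solute carriers, 89 in number, were balanced at 9 higher and 8 lower past 1.5-fold, with a median of -0.06; the mitochondrial carrier SLC25A35 had 3.62 and 21.6 FPKM and SLC43A3 18.9 and 6.46 FPKM. RAB GTPases had 24 of 34 below 0 and a median of -0.09, with RAB4B the highest at 616 and 1112 FPKM. Phosphatases of the PP2C and dual specificity groups had a median of -0.05 over 27 genes, with PPM1H the lowest above 0 in both. S100 genes had a median of -0.09 over 10 genes, in which S100A6 was listed at 0 in Jersey (44.4 FPKM in Holstein), and homologous recombination genes one of 0.03 over 16, with XRCC3 the lowest; both medians changed sign under another setting.

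The largest single differences were ranked among the 5084 named genes with at least 50 FPKM in either library, of which 33 were at least 2-fold higher and 23 lower. Of the 15 highest in Jersey, 9 were histones. The other 6 were WC11 and POLR2K, a small subunit shared by the RNA polymerases (chromosome 14, 62313103 to 62317319; 85.2 and 276 FPKM, 98.9 in Cholistani), KLHDC8A, a kelch domain protein (31.7 and 93.8 FPKM), ALOX12, the platelet lipoxygenase (25.4 and 69.5 FPKM), OGN, a matrix proteoglycan (24.4 and 65.5 FPKM), and FXYD7, a regulator of the sodium pump (20.6 and 55.3 FPKM). Lowest was KCNE3, a potassium channel subunit whose model covers 285 bp of chromosome 15 (53387184 to 53387468), with 61.0 FPKM in Holstein, and was listed at 0 in Jersey (49.96 FPKM in Cholistani). AQP9, a water and glycerol channel of neutrophils and the liver, had 62.7 and 22.3 FPKM, PPM1H, a serine/threonine phosphatase, 203 and 69.7 FPKM, RGS20, a brake on G protein signalling, 498 and 193 FPKM, TRY2, listed as a trypsin, 426 and 151 FPKM, and KCNQ5 76.5 and 26.8 FPKM. XRCC3 (87.7 and 16.6 FPKM), FAM114A2 (425 and 175 FPKM), ADCK4, a kinase-like protein of coenzyme Q synthesis (378 and 157 FPKM), and TTLL1, a tubulin glutamylase (293 and 127 FPKM), completed the 15 with SDS, CFB, ADGRE1, BPI and CPT1A. In 11 of these 15 the Jersey level was also below that of Cholistani, a count for which no share over all models was taken. The 15 were picked for a low Jersey level relative to Holstein. The Cholistani FPKM sum was also larger, at 9525773 against 6288105 in Jersey. Of the 15 lowest 6 share their listed span with another model, and of the 15 highest 1.

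Abundant named genes, 942 with a mean of at least 500 FPKM, were close between breeds: 1 was at least 2-fold higher, 2 were lower, and at 1.5-fold 12 were higher and 17 lower. PPP1R1B, a phosphatase inhibitor also called DARPP-32 (chromosome 19, 41265184 to 41273809), was the highest, with 357 FPKM in Holstein against 803 in Jersey (62.5 in Cholistani). Among those after it were RAB4B, an endosomal GTPase (616 and 1112 FPKM), the ribosomal protein gene RPL12 (554 and 921 FPKM), RPS27, the cytokine MIF (424 and 691 FPKM), the U1 snRNP protein SNRNP70 (740.3 and 1176 FPKM), the B cell gene TNFRSF13C, a minor RPL17 model (665 and 1017 FPKM) and the kinase RPS6KB2 (425 and 641 FPKM). At the low end stood models of RPL39, each 156 bp long, on chromosome 6 (755 and 351 FPKM) and the X chromosome (722 and 361 FPKM), while the abundant RPL39 model on chromosome 14 had 9933 and 9117 FPKM. BAX, which opens mitochondria in apoptosis, had 987 and 474 FPKM, AIF1, an actin-binding protein of macrophages, 2467 and 1278 FPKM, TIMP2, a metalloproteinase inhibitor, 1378 and 809 FPKM, DOCK2, which drives migration of white cells, 645 and 382 FPKM, and DYNLT1, a dynein light chain, 2300.1 and 1412 FPKM. FCGR3A, CCL5 and SRXN1 made up the rest. Of the 10 highest 6, and of the 10 lowest 4, share a listed span.

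Neighbouring models that carry the same listed span were looked at together. In all 3010 of the models compared lie on 1663 shared spans, and 196 of these spans held a model past 2-fold, 18 of them in both directions. On chromosome 21 from 68503573 to 68741974, where 6 models share a span, XRCC3 had 87.7 and 16.6 FPKM and its neighbour ZFYVE21 227 and 561 FPKM, with a sum of 315 and 577 FPKM. BAX shares a span on chromosome 18 (55352343 to 55603434) with SNRNP70, and the sum of both was 1727 FPKM in Holstein and 1649 in Jersey. ADCK4 shares one with RAB4B (49622948 to 49694093), with a sum of 994 and 1269 FPKM, and MFSD7 (103 and 47.1 FPKM) shares one with PCGF3 (177 and 368 FPKM) on chromosome 6, with a sum of 281 and 415 FPKM. On chromosome 15 (81001531 to 81157802) the span of PRG3, higher in Jersey, is also that of SLC43A3, lower in Jersey. These pairs were picked after their values were seen, and whether fragments were divided differently between the models of a span was not tested.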

How the data were processed

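Poly(A)+ RNA of pooled white blood cells was sequenced in 1 library per breed, each on a lane of an Illumina Genome Analyzer IIx. Per the submitters' notes and the study's methods, the authors aligned reads to the cattle genome btau4.0 with TopHat 1.0.14 and Bowtie 0.12.7 and made the deposited FPKM values with Cufflinks 0.9.3, over a set of models that joined annotated genes with transcripts newly assembled from these reads, with upper-quartile normalisation and sequence bias correction. Upper-quartile scaling sets libraries on a common scale but not on a common FPKM sum, hence the rescaled alternative. The fragments behind each FPKM value are not in the table, so no intervals were computed, and with 1 library per breed no test was run.

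Models with a value in both libraries and at least 10 FPKM in either were compared as log2((Jersey + 1)/(Holstein + 1)) with Python 3.11.15, numpy 2.4.6, pandas 2.3.3 and matplotlib 3.10.9. The code was tested on simulated data. Coordinates are 1-based on btau4.0. UniProt entry names were matched to gene symbols by hand; 466 of the 905 genes spelled out in the lists were found. Where a gene name stood on several models, lists other than histones took the most abundant model. The comparison, the 49 gene lists and the rules were chosen with earlier results of these data known. Named genes were, among models with the name of 1 gene, the 15 highest and 15 lowest with at least 50 FPKM in either library, the 10 highest and 10 lowest with a mean of at least 500 FPKM, the 5 most abundant models of each library, and in each list the 4 farthest from 0 and the 2 most abundant. Members of a named group quoted for its extent, and further genes where stated, were added after their values were seen. Alternatives changed the pseudocount, minimum, scaling, centring and kinds of model. A few genes that these rules name are not reported here.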

Additional observations from a re-analysis of the deposited data

How the results depend on the processing

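The counts of models past a fold depended on which models entered, the direction of gene groups less so. From 882 models at least 2-fold higher and 512 lower, a minimum of 50 FPKM in either library left 302 and 117, one of 10 FPKM in both libraries 235 and 113, gene names alone 115 and 92, models other than small noncoding RNAs and unnamed ones 208 and 148, and models above 0 in both libraries 323 and 186. The last 2 of these settings, and that of unshared spans, were chosen after seeing the data. At 1.5-fold the higher and lower counts were 560 and 373, 681 and 536, 327 and 312 and 558 and 474 in the first 4 of these settings, and 845 were higher among models above 0 in both. All of these settings test fewer models. With pseudocounts of 0.1 and 10, no minimum, both libraries rescaled to their mean FPKM sum, ratios centred on the median, or models on unshared spans, counts at 2-fold stayed within 1.5 times the first ones. Rescaling moved the median of all models from 0.02 to -0.06 and the share of higher models among those past 1.5-fold from 58.4% to 50.7%. Of 46 gene lists with at least 3 genes compared, 36 kept the sign of their median under every setting run; the exceptions were MHC class I, S100, chaperone, homologous recombination, immediate early, plasma cell, proteasome, reference gene, translation factor and respiratory complex II and III genes. No paired analysis was possible because each breed was 1 library. With no fragment counts in the table, the precision of single values is unknown, and a value listed at 0 has no stated detection limit.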

Other observations

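Differences ran together along the genome in places, which were picked after their values were seen. Runs of at least 3 neighbouring models past 2-fold in the same direction numbered 28 on the higher side, the longest of 8 models, and 7 on the lower side, the longest of 5. Of the 28 higher runs, 21 held no gene name and 20 had all models on distinct spans, and of the 7 lower runs 5 and 4. The run of 8 lies on 1 shared span of chromosome 19 (8734352 to 8883076), and 7 of its models are small noncoding RNAs. On chromosome 7 from 16001102 to 16060557, ADGRE1 and 4 unnamed models formed a run lower in Jersey. The unnamed models, with 144 to 336 FPKM in Holstein, were listed at 0 in Jersey and in Cholistani. They span only 137 to 144 bp each, so their levels are uncertain. On chromosome 23 from 31012334 to 31774035, the histone cluster, 23 of 35 models were at least 2-fold higher and 1 lower. A set of 14 unnamed models on a span they share on chromosome 18 (50327511 to 50534102) had 7 higher and 1 lower and summed levels of 4982 FPKM in Holstein and 10590.1 in Jersey, and a block on chromosome 5 (109308744 to 110372928) had 9 of 10 higher and sums of 435 and 1078 FPKM.

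Models without a name held some of the largest levels with a difference. One of 716 bp on chromosome 23 (30758484 to 30759199), near the histone cluster, had 4701 FPKM in Holstein and 17410.4 in Jersey. One of 77 bp on chromosome 14 (5662914 to 5662990) was listed at 0 in Holstein against 12252 FPKM in Jersey, and one of 78 bp on chromosome 18 (40406332 to 40406409) had 1847 FPKM in Holstein and was listed at 0 in Jersey. Levels of models as short as 77 or 78 bp are uncertain. What these transcripts are is not given in the sources used here.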
